A study of Saccharomyces cerevisiae with 4 samples.

Results

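The regions described here are the replicated Pho4 peaks of budding yeast, Saccharomyces cerevisiae, on chromosomes VIII, X, XI, XII and XIII and on chromosome VII from base 856780 to its end at base 1090940. A peak of Pho4 replicate 2 was kept when at least 1 bp of it lay under a peak of Pho4 replicate 1. The rule kept 622 of the 718 peaks that Pho4 replicate 2 had there (86.6%, 95% Wilson interval 83.9 to 88.9%). All 4 lists of the study together held 6744 peaks.

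Pho4 is the activator of the yeast phosphate response, a basic helix-loop-helix protein that the Pho80-Pho85 kinase keeps out of the nucleus while phosphate is plentiful. When phosphate runs short the kinase is inhibited, Pho4 enters the nucleus, and genes for phosphate uptake, scavenging and storage are switched on. Pho4 binds the E-box CACGTG and, less tightly, CACGTT. Cbf1, another protein of the same family, binds the same E-box at centromeres and at genes of sulfur amino acid synthesis, and is known to favour sites with a T directly 5′ of the hexamer, which Pho4 disfavours.

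Binding was mapped by ChIP-nexus, which recovers crosslinked DNA with an antibody and has an exonuclease chew each fragment back to the edge of the bound protein. The Pho4 libraries came from the W303 strain Z1441 with the genotype PHO4::9myc::TRP1, and the Cbf1 libraries from the W303 strain Z1497 with the genotype CBF1::9myc::TRP1. Each protein thus carried 9 copies of the Myc epitope, and both were recovered with the same Myc antibody. Cells were grown at 25 °C in YPD and then held for 2 h in medium without phosphate. The same protocol is attached to the Cbf1 samples, but its wording names Pho4 alone, so whether the Cbf1 cells were starved too is not known, and the Pho4 and Cbf1 values below may differ in growth condition as well as in protein. There were 2 libraries of each protein, all of a factor from a single tagged strain, and the labels do not say whether the libraries came from separate cultures. Input DNA, an untagged strain and phosphate-rich cells were not analysed here, and whether the deposited fold enrichments rest on a control sample is not known.

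The list of Cbf1 replicate 1 ended at base 856779 of chromosome VII. Every Cbf1 value here therefore rests on Cbf1 replicate 2 alone and has no replicate check. The lists carry no read totals. Under a Poisson model the deposited folds and p-values gave whole read heights, within 0.001 on −log10 p, at all 559 of the 622 peaks that could be solved in Pho4 replicate 1 and all 587 in Pho4 replicate 2. Peaks past a −log10 p of 250 were not solved, so the heights leave out the strongest peaks. The median height at the summit was 91 reads (Pho4 replicate 1) and 52 reads (Pho4 replicate 2), against 46 at the Cbf1 replicate 2 peaks of the same chromosomes. Pho4 replicate 1 was thus the deeper list, and a fold in Pho4 replicate 2 carries more counting error. The Wilson intervals given below cover counting error only.

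The sequences under the strongest peaks show what the peaks shared. Each sequence below is the plus strand of the R64 (sacCer3) genome, 40 bp to either side of the Pho4 replicate 2 summit, 81 bp in all, written 5′ to 3′. Capitals mark an E-box with the base on each side of it. The first set holds the peaks upstream of the phosphate genes, and SPL2, VTC4 and PHO84 each have a pair of E-boxes within the window.
SPL2 (chrVIII:375116-375196): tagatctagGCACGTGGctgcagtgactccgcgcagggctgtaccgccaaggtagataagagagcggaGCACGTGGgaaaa
VTC4 (chrX:413481-413561): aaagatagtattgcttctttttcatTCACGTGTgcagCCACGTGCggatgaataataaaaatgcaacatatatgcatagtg
PHO86 (chrX:192294-192374): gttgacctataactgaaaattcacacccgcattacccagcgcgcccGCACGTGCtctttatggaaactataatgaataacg
PHO84 (chrXIII:26186-26266): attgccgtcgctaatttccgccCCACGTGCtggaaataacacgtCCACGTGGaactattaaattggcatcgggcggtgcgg
PHO81 (chrVII:958501-958581): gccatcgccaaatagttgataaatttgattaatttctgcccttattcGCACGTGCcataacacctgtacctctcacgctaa
VIP1/UTP21 (chrXII:937373-937453): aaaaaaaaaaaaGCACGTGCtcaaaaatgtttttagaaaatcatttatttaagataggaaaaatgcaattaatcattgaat

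The second set holds strong peaks inside coding sequence, where the same E-box lay within the open reading frame. In all 5 of these windows neither strand had a T directly before the hexamer.
TRM5 (chrVIII:236148-236228): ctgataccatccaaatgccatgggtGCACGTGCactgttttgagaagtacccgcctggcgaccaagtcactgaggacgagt
DML1 (chrXIII:689217-689297): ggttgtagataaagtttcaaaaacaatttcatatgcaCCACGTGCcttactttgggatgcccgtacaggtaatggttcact
CMP2 (chrXIII:161769-161849): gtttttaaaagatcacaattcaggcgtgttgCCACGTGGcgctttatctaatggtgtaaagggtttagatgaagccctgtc
TAX4 (chrX:279277-279357): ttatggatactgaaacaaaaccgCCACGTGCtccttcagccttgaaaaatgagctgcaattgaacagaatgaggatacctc
DAL80 (chrXI:506938-507018): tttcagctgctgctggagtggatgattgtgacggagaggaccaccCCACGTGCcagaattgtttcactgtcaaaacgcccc

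The third set holds some of the peaks upstream of sulfur and glycolytic genes at which the Cbf1 fold was above the Pho4 fold. In each window shown, TCACGTG can be read on at least 1 strand. The peak at YCT1, not shown, also had the higher fold in Cbf1, with the Cbf1 summit 289 bp away. Its window held no E-box.
GSH1 (chrX:236674-236754): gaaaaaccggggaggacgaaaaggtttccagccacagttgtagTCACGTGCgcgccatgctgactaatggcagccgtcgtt
MET17 (chrXII:732226-732306): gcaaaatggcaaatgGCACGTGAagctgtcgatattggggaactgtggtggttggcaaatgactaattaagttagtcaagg
MET14 (chrXI:439605-439685): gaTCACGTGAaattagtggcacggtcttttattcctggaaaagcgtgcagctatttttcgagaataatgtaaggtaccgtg
HOM6 (chrX:690735-690815): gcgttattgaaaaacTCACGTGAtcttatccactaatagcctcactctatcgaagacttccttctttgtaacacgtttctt
TDH2 (chrX:455025-455105): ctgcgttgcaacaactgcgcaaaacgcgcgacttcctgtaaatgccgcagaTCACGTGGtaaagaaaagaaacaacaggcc

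The fourth set shows strong peaks with no E-box within 50 bp of the summit; the intervals of INM1 and PHO12 hold 1 farther out. Capitals mark CACGTT, or its reverse complement, with the base on each side. The last pair of sequences, from the end of chromosome XII and the promoter of PHO12, hold neither hexamer.
ANR2 (chrXI:350694-350774): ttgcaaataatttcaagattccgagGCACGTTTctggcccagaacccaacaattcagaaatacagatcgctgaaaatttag
UGP1 (chrXI:369431-369511): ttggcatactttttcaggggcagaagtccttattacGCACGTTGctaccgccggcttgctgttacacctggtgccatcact
FBA1 (chrXI:327854-327934): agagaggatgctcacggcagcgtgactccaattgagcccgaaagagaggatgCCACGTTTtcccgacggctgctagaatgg
PTK1 (chrXI:70616-70696): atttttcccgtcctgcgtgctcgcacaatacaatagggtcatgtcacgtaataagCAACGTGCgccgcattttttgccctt
INM1 (chrVIII:198381-198461): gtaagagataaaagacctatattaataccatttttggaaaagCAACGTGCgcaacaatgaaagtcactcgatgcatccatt
YLL067C (chrXII:56-136): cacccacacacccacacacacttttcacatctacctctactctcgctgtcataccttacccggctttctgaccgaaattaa
YHR214C-E/PHO12 (chrVIII:551697-551777): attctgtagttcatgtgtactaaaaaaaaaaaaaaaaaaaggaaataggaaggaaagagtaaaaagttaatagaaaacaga

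The 622 peaks had a median fold enrichment over background of 4.08 in Pho4 replicate 1 and 4.15 in Pho4 replicate 2, with ranges of 1.67 to 42.3 and 1.84 to 43.6. A few peaks thus stood far above a broad floor of weak peaks. The 96 Pho4 replicate 2 peaks that were not replicated had a median fold of 2.49, and the 280 unmatched peaks of Pho4 replicate 1 had a median fold of 2.29. These medians describe what the rule kept and are no test. The smallest overlaps kept were 1, 6 and 7 bp, and the nearest peaks left out lay 1, 6 and 46 bp from a Pho4 replicate 1 peak. The peaks were spread evenly over the chromosomes, with 13.9 to 15.7 per 100 kb. Chromosome VII contributed 36, VIII 88, X 117, XI 99, XII 150 and XIII 132.

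Fold enrichment was close between the replicates. Across the 622 peaks, Pearson's r of log2 fold was 0.906 and Spearman's rho was 0.866. These are values across peaks of the same 2 libraries, selected as present in both, and peaks are not independent replicates. The folds differed by more than 2 times at 12 peaks, of which 5 lay at repeats or noncoding RNA genes. The summits lay a median of 26 bp apart, and 444 peaks (71.4%) had summits at most 50 bp apart. Summits met more closely at peaks with an E-box, where the median distance was 16 bp and 144 of 162 (88.9%) lay within 50 bp. At the other 460 peaks the median was 32 bp and 300 (65.2%) lay within 50 bp.

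**Figure D1:**
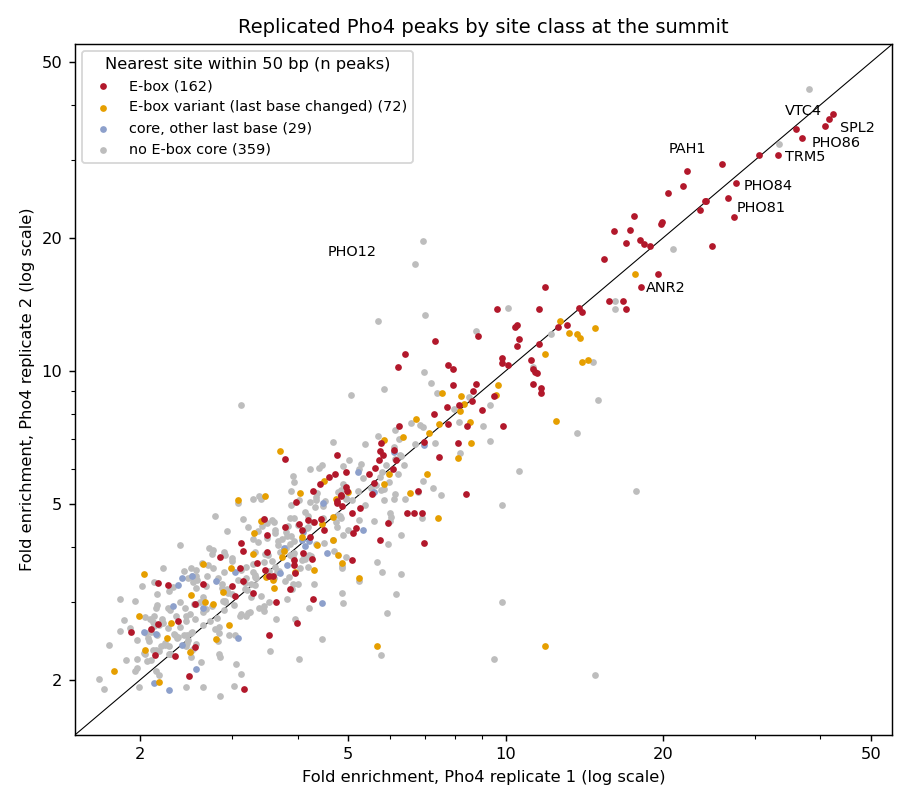
Fold enrichment of each of the 622 replicated peaks in Pho4 replicate 1 (x axis, log scale) and Pho4 replicate 2 (y axis, log scale), coloured by the site within 50 bp of the summit, with the line of equality. Most peaks with no core (359) lie at the lower left, peaks with an E-box (162) extend to the upper right, and the peak at PHO12 stands off the line. YLL067C and YLL066W-B, with no core, also lie at the upper right.

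The phosphate genes were among the strongest peaks. Of 9 listed phosphate genes on these chromosomes, 7 had a replicated Pho4 summit within 500 bp upstream of the start codon. Among all 2075 protein-coding genes there, 417 (20.1%) had such a summit. The median fold of the 7 was 27.6 in Pho4 replicate 1 and 26.7 in Pho4 replicate 2, against 4.11 and 4.19 for all 332 peaks upstream of a gene. PHO90, for a low-affinity phosphate transporter, and PPX1, for an exopolyphosphatase, had none.

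Among the regulators, SPL2, whose product restrains low-affinity phosphate uptake, had the peak of highest rank among all 622, with a fold of 42.3 in Pho4 replicate 1 and 38.2 in Pho4 replicate 2, against 8.83 in Cbf1 replicate 2. Its summit lay 56 bp upstream of the start codon, between the pair of GCACGTGG sites in the window printed above, and the whole peak held 3 E-boxes. The Cbf1 summit lay 328 bp from the Pho4 summit, in a broad Cbf1 peak. PHO81, which encodes the inhibitor of the Pho80-Pho85 kinase, had folds of 26.6 and 24.7 in Pho4 replicates 1 and 2, against 6.54 in Cbf1 replicate 2, with the summit 331 bp upstream. VIP1, a kinase that makes inositol pyrophosphates, was weaker, with folds of 9.49 and 8.76 in Pho4 replicates 1 and 2, against 3.8 in Cbf1 replicate 2.

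Among the genes of transport and storage, PHO84, the high-affinity phosphate transporter, had folds of 27.6 and 26.7 in Pho4 replicates 1 and 2, against 3.86 in Cbf1 replicate 2, 426 bp upstream. PHO86, needed for Pho84 to leave the endoplasmic reticulum, had folds of 37 and 33.7 in Pho4 replicates 1 and 2, against 6.47 in Cbf1 replicate 2, 197 bp upstream. VTC4, the polyphosphate polymerase of the vacuole, had folds of 35.9 and 35.3 in Pho4 replicates 1 and 2, against 8.66 in Cbf1 replicate 2, 122 bp upstream. At VTC4 the Pho4 and Cbf1 summits were 1 bp apart, at PHO84 7 bp, at PHO81 10 bp and at PHO86 19 bp. In these 4 promoters the summits of the proteins thus nearly coincided, with the larger fold in Pho4 each time.

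PHO12, a secreted acid phosphatase, was the exception among these genes. Its fold was 6.7 in Pho4 replicate 1 and 17.5 in Pho4 replicate 2, and no Cbf1 replicate 2 peak overlapped it. The peak lies near the end of chromosome VIII, in sequence that has a near-identical copy at PHO11, and how reads were shared between copies is not given in the sources used here. No E-box lay within 50 bp of its summit, although 1 lay within the peak.

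**Figure D2:**
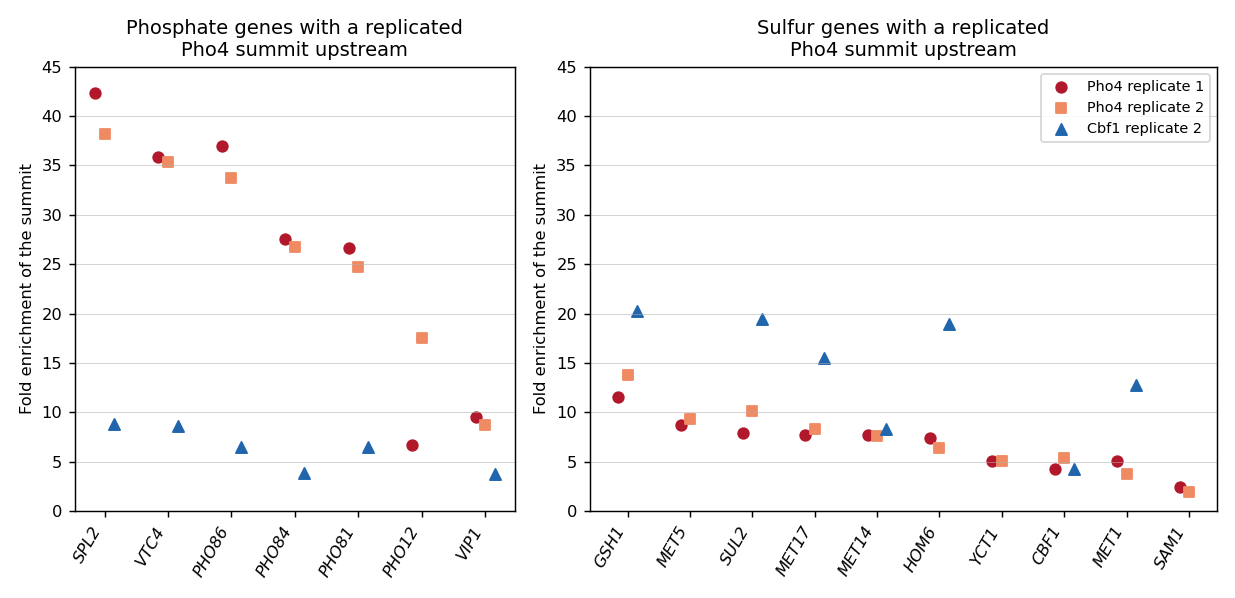
Fold enrichment of the Pho4 summit upstream of each phosphate gene (left, 7 genes) and sulfur gene (right, 10 genes) in Pho4 replicate 1 and Pho4 replicate 2, with the fold of a Cbf1 replicate 2 summit within 500 bp upstream where there was one. Pho4 lies above Cbf1 at all 6 phosphate genes with a Cbf1 summit, and Cbf1 lies above Pho4 at 6 of the 7 such sulfur genes.

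The 12 highest peaks held more than phosphate genes. Of these 12, 10 had an E-box within 50 bp of the summit, and in all 10 the E-box nearest the summit had no T flank. HMS2, related to the heat shock transcription factors, and the overlapping YJR146W shared a summit, with folds of 41.5 and 37.2 in Pho4 replicates 1 and 2, against 19.8 in Cbf1 replicate 2. The promoter shared by PTK2, a protein kinase that regulates ion transport at the plasma membrane, and APS2, a subunit of a clathrin adaptor, had folds of 40.9 and 35.8 in Pho4 replicates 1 and 2, against 13 in Cbf1 replicate 2. PAH1, the phosphatidate phosphatase of lipid synthesis, had folds of 26 and 29.4 in Pho4 replicates 1 and 2, against 2.54 in Cbf1 replicate 2. The promoter between PDR8, a transcription factor of drug resistance, and BOP2 had folds of 30.5 and 30.8 in Pho4 replicates 1 and 2, against 9.13 in Cbf1 replicate 2. TRM5, a tRNA methyltransferase, had its peak inside the gene, with folds of 33.2 and 30.8 in Pho4 replicates 1 and 2, against 13.7 in Cbf1 replicate 2. The pair without an E-box lay near the left end of chromosome XII, at YLL067C and YLL066W-B.

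An E-box lay within 50 bp of the summit at 162 of the 622 peaks (26.0%, interval 22.8 to 29.6%). CACGTG, which reads the same on both strands, lay that close to 0.791% of all positions of these chromosomes. CACGTT, searched on both strands, was present without an E-box at a further 72 peaks (11.6%, interval 9.29 to 14.3%). At 79 peaks (12.7%) it was present whatever else the window held, against 3.06% of all positions. Another 29 peaks (4.66%) had the core CACGT with a different last base. The remaining 359 (57.7%, interval 53.8 to 61.5%) held no CACGT on either strand. Any CACGT lay near 42.3% of the summits, against 7.8% of positions.

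Fold enrichment followed the site. Peaks with an E-box had a median fold of 6.33 in Pho4 replicate 1 and 6.42 in Pho4 replicate 2, against 3.65 and 3.7 at the 460 peaks without one, a ratio of 1.73 in each replicate. Peaks with CACGTT had medians of 4.71 and 4.66 in Pho4 replicates 1 and 2. Those with no CACGT had medians of 3.51 and 3.59. The classes overlapped in part. The middle 50% of folds in Pho4 replicate 2 ran from 4.26 to 12.6 with an E-box and from 2.8 to 5.03 with no CACGT. The E-box centre lay a median of 14.5 bp from the Pho4 replicate 2 summit in 162 peaks and 13.5 bp from the Pho4 replicate 1 summit in 155.

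Peaks with more E-boxes had higher median folds. Where the interval held none (443 peaks), the median fold was 3.62 in Pho4 replicate 1 and 3.64 in Pho4 replicate 2. With 1 E-box (161 peaks) the medians were 6.08 and 5.84, and with 2 (16 peaks) 9.67 and 10.1. The 2 peaks with 3 or more had medians of 23.1 and 22.3. The median width was 306 bp with none, 335 bp with 1, 514 bp with 2 and 364 bp with 3 or more, and the part of width in these counts was not tested.

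The peaks were split into 4 equal groups by the mean percentile of fold in the Pho4 lists. From the weakest group to the strongest, the share with an E-box was 9.03, 15.4, 26.5 and 53.2%. The share with CACGTT and no E-box was 8.39, 10.9, 11.0 and 16.0% in the same order. The share upstream of a gene showed no such order, at 44.5, 58.3, 58.1 and 52.6%. Among the 60 highest peaks, 43 had an E-box, 9 had CACGTT and 8 had neither core.

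**Figure D3:**
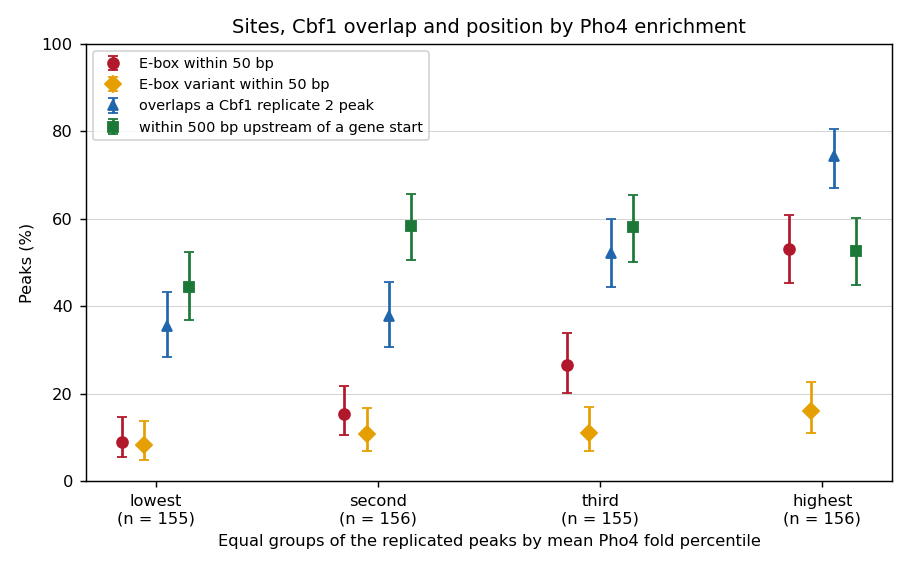
Share of the peaks (%) with an E-box, with CACGTT and no E-box, overlapping a Cbf1 replicate 2 peak, and within 500 bp upstream of a gene start, in 4 equal groups of mean Pho4 fold percentile from lowest to highest; bars are 95% Wilson intervals. The E-box share climbs to 53.2% and the Cbf1 share to 74.4% in the highest group, while the promoter share stays between 44.5 and 58.3%.

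The strongest CACGTT peaks were near in fold to many E-box peaks, and those named here had a Cbf1 fold below the Pho4 folds or no Cbf1 peak. ANR2, with the peak inside the gene, had folds of 17.7 and 16.6 in Pho4 replicates 1 and 2 and no Cbf1 replicate 2 peak. FBA1, the fructose bisphosphate aldolase of glycolysis, had folds of 13.9 and 11.9 in Pho4 replicates 1 and 2, against 3.03 in Cbf1 replicate 2, 407 bp upstream. UGP1, which makes UDP-glucose, had folds of 12.7 and 13, and PTK1, a protein kinase, had folds of 14.8 and 12.5 in Pho4 replicates 1 and 2, neither with a Cbf1 peak. INM1, an inositol monophosphatase, had folds of 14 and 10.5 in Pho4 replicates 1 and 2, against 1.99 in Cbf1 replicate 2. Of the 72 CACGTT peaks, 23 (31.9%) overlapped a Cbf1 replicate 2 peak. UGP1, PTK1 and INM1 were picked for display after their values were seen.

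The peaks with no CACGT were richer in G and C than their surroundings. The median GC content was 46.5% in the 101 bp around their summits, against 38.6% in windows 250 bp to each side and 38.3% over these chromosomes. Of the hexamers in at least 20 of these windows, the 12 with the highest ratio of summit to flank share were mostly rich in G and C, and some hold CACG while others, such as CGCGGA and GCCCAC, do not. CACGCC was in 5.85% of the summit windows and 0.703% of the flanking windows, CACGCG in 7.52% and 0.985%, CGCGGA in 5.57% and 1.13%, and CACATG, the lowest of the 12 by ratio, in 7.52% and 1.69%, each counted on both strands. These hexamers overlap one another, and the part of GC content in their shares was not tested.

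The base before the E-box separated Pho4 peaks from Cbf1 peaks. These chromosomes held 345 E-boxes, and 173 of them (50.1%) had a replicated Pho4 summit within 50 bp, against 140 (40.6%) with a Cbf1 replicate 2 summit. With no T flank, 108 of 159 sites (67.9%, interval 60.3 to 74.7%) had a replicated Pho4 summit and 38 (23.9%, 17.9 to 31.1%) a Cbf1 summit. With a T flank on 1 strand, 53 of 139 (38.1%) had a Pho4 summit and 70 (50.4%) a Cbf1 summit. With a T flank on both strands, 12 of 47 (25.5%, 15.3 to 39.5%) had a Pho4 summit and 32 (68.1%, 53.8 to 79.6%) a Cbf1 summit. The order over the flanks thus ran one way for Pho4 and the other way for Cbf1.

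The odds of a summit at T-flanked sites were divided by the odds at the remaining sites. The log2 of that ratio was -1.88 in Pho4 replicate 1 and -1.87 in Pho4 replicate 2, with a standard error over sites of 0.33 each. It was 1.94 in Cbf1 replicate 2, with a standard error of 0.34. Pho4 (mean -1.88, SD 0.01, n = 2) minus Cbf1 was -3.82. With 2 libraries against 1, an exact two-sided permutation test cannot go below p = 0.33, which is the value it gave. Of the 86 sites with a Pho4 summit and no Cbf1 summit, 14 (16.3%) had a T flank. Of the 53 with a Cbf1 summit and no Pho4 summit, 51 (96.2%) had one. The sites with both (58.6%) and with neither (58.8%) lay between.

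The full pair of flanking bases gave a finer order, which did not follow the T flank alone. GCACGTGC had a replicated Pho4 summit at 12 of 13 sites (92.3%) and a Cbf1 summit at 10 (76.9%). GCACGTGG, with its reverse complement CCACGTGC, had a Pho4 summit at 33 of 41 (80.5%) and a Cbf1 summit at 10 (24.4%). CCACGTGG had a Pho4 summit at 16 of 21 (76.2%) and a Cbf1 summit at 6 (28.6%). ACACGTGT had a Pho4 summit at 5 of 11 (45.5%) and a Cbf1 summit at 0 of 11, where a count of 0 allows a share of up to 27.3%. Among sites without a T, GCACGTGC alone thus had Cbf1 summits as often as TCACGTGA, where 68.1% had one. The Cbf1 intervals, 49.7 to 91.8% at the 13 GCACGTGC sites and 53.8 to 79.6% at the 47 TCACGTGA sites, are wide and overlap. With a T on 1 strand, GCACGTGA had a Pho4 summit at 29 of 57 sites (50.9%) and a Cbf1 summit at 38 (66.7%). CCACGTGA had a Pho4 summit at 15 of 40 (37.5%) and a Cbf1 summit at 16 (40%). ACACGTGA had a Pho4 summit at 9 of 42 (21.4%) and a Cbf1 summit at 16 (38.1%). The Pho4 share at GCACGTGA was thus near that of ACACGTGG, which has no T flank, at 19 of 37 (51.4%). PHO86, PHO81, TRM5 and HMS2 above carry GCACGTGC.

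**Figure D4:**
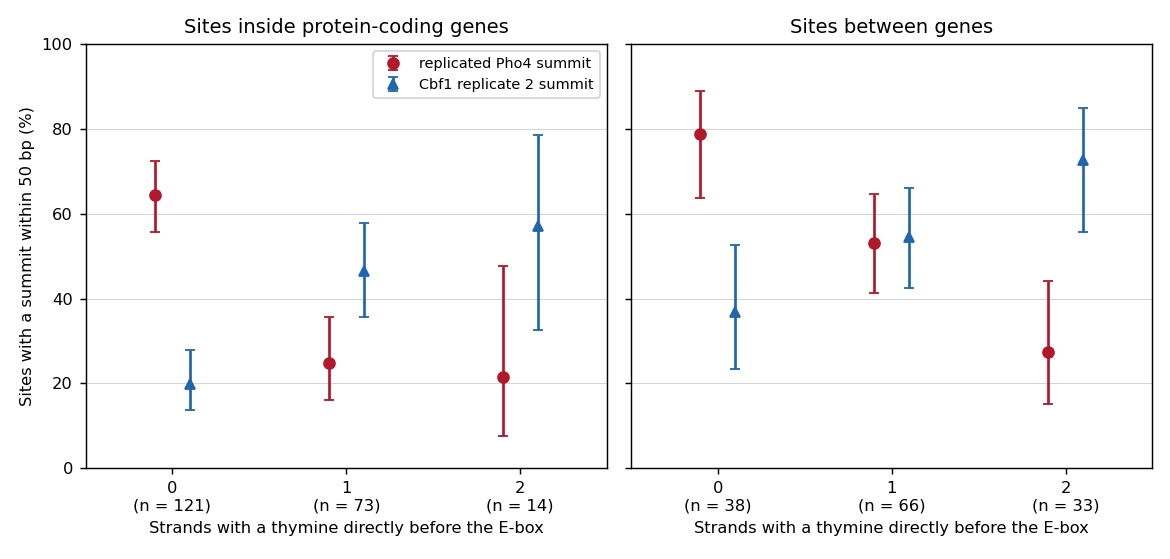
Share of E-boxes (%) with a replicated Pho4 summit or a Cbf1 replicate 2 summit within 50 bp, by the number of strands with a thymine directly before the hexamer, for sites inside protein-coding genes (left) and between genes (right); bars are 95% Wilson intervals. In both panels the Pho4 share is highest with no thymine, 64.5% inside genes and 78.9% between them, and the Cbf1 share is highest with 2. Sites inside a gene include some that lie upstream of another gene.

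In each flank class the share of sites with a replicated Pho4 summit was lower inside genes than between genes, and the intervals were apart only with a T flank on 1 strand. Of 208 E-boxes in open reading frames, 99 (47.6%) had a replicated Pho4 summit, against 74 of 137 (54.0%) between genes. Sites counted in open reading frames can also lie upstream of another gene, as at PHO84, MET17, HOM6 and RPS21A. Cbf1 replicate 2 had a summit at 66 (31.7%) of the sites in genes, against 74 (54.0%) between genes. Among sites without a T flank, 78 of 121 (64.5%) in genes had a Pho4 summit, with median folds of 6.06 and 6.37 in Pho4 replicates 1 and 2. Between genes, 30 of 38 (78.9%) had one, with median folds of 18.2 and 17.3. With a T flank on 1 strand, 18 of 73 (24.7%, interval 16.2 to 35.6%) in genes had one, with median folds of 4.49 and 4.28. Between genes, 35 of 66 (53.0%, 41.2 to 64.6%) had one, with median folds of 6.47 and 6.33. With a T flank on both strands the counts were 3 of 14 (21.4%) in genes and 9 of 33 (27.3%) between genes. Sites without a T flank made up 121 of the 208 in genes, against 38 of the 137 between genes, and the pooled shares carry that difference.

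Of the 622 peaks, 332 (53.4%, interval 49.4 to 57.3%) had the summit within 500 bp upstream of a start codon, against 21.3% of all bases. Another 193 (31.0%) lay inside a gene and upstream of none, and 97 (15.6%) were neither. Counting every summit in an open reading frame gave 240 (38.6%), against 73.8% of bases. Peaks inside genes held an E-box most often, at 81 of 193 (42.0%), against 66 of 332 (19.9%) for upstream peaks. Of those 81, 67 had no T flank at the nearest E-box. Their median folds were 5.47 and 5.34 in Pho4 replicates 1 and 2, against 2.9 and 2.92 for the 112 peaks inside genes without an E-box.

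Several peaks inside genes were as strong as many of those in promoters. As a class they were weaker: the median folds of E-box peaks inside genes were 5.47 and 5.34 in Pho4 replicates 1 and 2. For the 66 E-box peaks upstream of a gene they were 8.01 and 8.84. FLO5, a flocculation protein of the cell wall, had folds of 22.2 and 28.4 in Pho4 replicates 1 and 2, against 3.75 in Cbf1 replicate 2, in a gene with close relatives whose share of the reads is not known. DML1, a mitochondrial inheritance protein, had folds of 20.5 and 25.3 in Pho4 replicates 1 and 2, against 2.45 in Cbf1 replicate 2. CMP2, a catalytic subunit of calcineurin, had folds of 18.1 and 19.8 in Pho4 replicates 1 and 2, against 1.89 in Cbf1 replicate 2. DAL80, a repressor of nitrogen catabolite genes, had folds of 16.1 and 20.7 in Pho4 replicates 1 and 2, against 3.1 in Cbf1 replicate 2. TAX4 had folds of 18.9 and 19.2 in Pho4 replicates 1 and 2, against 1.99 in Cbf1 replicate 2. FLO5, DML1, CMP2, DAL80 and TAX4 were picked for display after their values were seen.

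Of the 6 strongest peaks without any overlapping Cbf1 replicate 2 peak, 5 had an E-box with no T flank. NAP1, a histone chaperone, had folds of 24.2 and 24.3 in Pho4 replicates 1 and 2, 448 bp upstream of its start. CFF1 had folds of 17.6 and 22.4, 459 bp upstream. The E-boxes of the NAP1 and CFF1 peaks lay inside another open reading frame, so neither site was between genes. SWE1, the kinase that holds back Cdc28 at mitotic entry, was only the nearest gene to its peak, whose summit lay 73 bp outside it. That summit was not within 500 bp upstream of any start, and its folds were 19.6 and 16.6 in Pho4 replicates 1 and 2. YJL068C had folds of 17.3 and 20.8 and GTO3, a glutathione transferase, had folds of 18.2 and 15.5, each with the peak inside the gene. The other was ANR2, with CACGTT.

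In all, 311 of the 622 peaks (50.0%, interval 46.1 to 53.9%) overlapped a Cbf1 replicate 2 peak. For all 718 Pho4 replicate 2 peaks the share was 46.1%, and Cbf1 peaks covered 7.15% of the bases. By site the share was 69.8% (113 of 162) with an E-box, 31.9% with CACGTT and 45.7% (164 of 359) with no CACGT. Overlap often did not mean a shared summit. The summits lay a median of 64 bp apart, and 135 of 311 (43.4%) lay within 50 bp. That was so for 73 of 113 (64.6%) with an E-box and 62 of 198 (31.3%) without. The overlap climbed with Pho4 fold, with shares in the 4 groups of 35.5, 37.8, 52.3 and 74.4%. The part of peak detection in this order was not tested.

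Among the E-box peaks, the flank went with the balance of the 2 proteins. The 105 peaks with no T flank had median folds of 7.34 and 8 in Pho4 replicates 1 and 2, and 61 (58.1%) overlapped a Cbf1 peak, with a median Cbf1 fold of 3.36. The 46 peaks with a T flank on 1 strand had medians of 5.1 and 4.77 in Pho4, and 41 (89.1%) overlapped a Cbf1 peak, with a median Cbf1 fold of 11.5. All 11 with a T flank on both strands overlapped one, with medians of 6.08 and 6.33 in Pho4 replicates 1 and 2 and 18.9 in Cbf1 replicate 2. At the 61 shared peaks with no T flank the Pho4 medians were 11.3 and 11.5, and at the 41 with a T flank on 1 strand they were 5.82 and 5.26. The Cbf1 fold is that of the overlapping peak, whose summit lay within 50 bp at 73 of the 113 shared E-box peaks. At SPL2 it lay 328 bp away, near an E-box with a T flank on both strands. How the folds of different libraries were scaled is not known, so their ratio is no measure of occupancy. Over the 311 shared peaks, Spearman's rho between mean Pho4 percentile and Cbf1 fold was 0.299, a value across peaks that share the same libraries and chromatin.

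**Figure D5:**
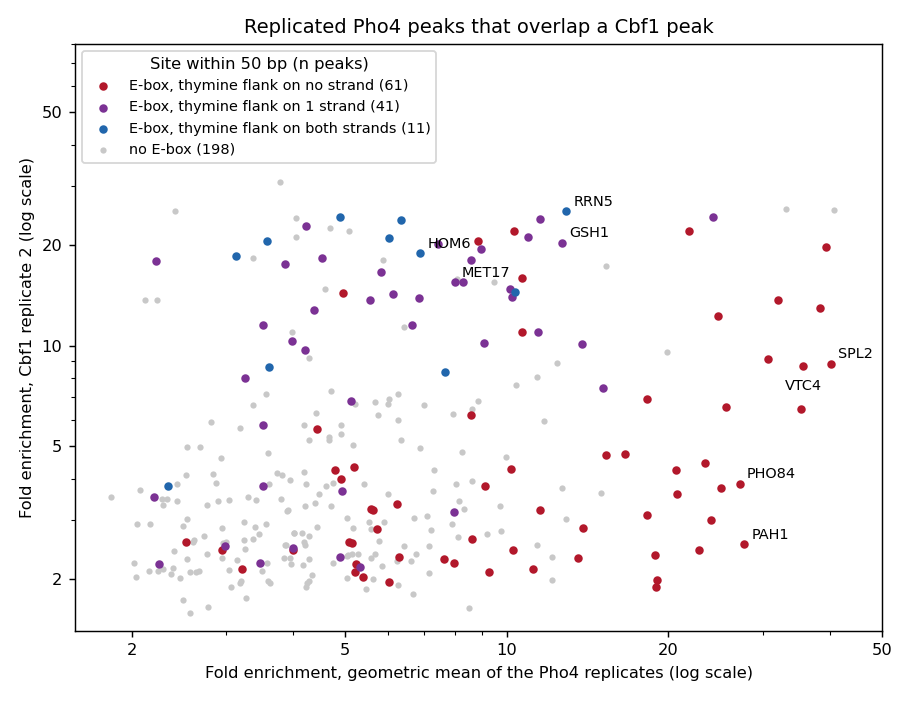
Fold enrichment in Cbf1 replicate 2 (y axis, log scale) against the geometric mean of the Pho4 replicates (x axis, log scale) at the 311 peaks that overlap a Cbf1 peak, coloured by the number of strands with a thymine directly before the E-box. The 61 peaks with none reach the far right, where SPL2, VTC4, PHO84 and PAH1 lie, and the 11 with a thymine on both strands lie mostly at high Cbf1 fold. The E-box is the one nearest the Pho4 summit, and the Cbf1 summit may lie at another site.

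Sulfur genes showed the other balance. Of 15 listed genes of sulfur uptake and methionine, cysteine and glutathione synthesis, 10 had a replicated Pho4 summit within 500 bp upstream, against 20.1% of all genes, and 9 had a Cbf1 replicate 2 summit there, against 12.7%. The median fold of the 10 was 7.58 in Pho4 replicate 1 and 7 in Pho4 replicate 2. GSH1, which makes the first enzyme of glutathione synthesis, had folds of 11.6 and 13.8 in Pho4 replicates 1 and 2, against 20.3 in Cbf1 replicate 2. SUL2, a sulfate permease, had folds of 7.94 and 10.1 in Pho4 replicates 1 and 2, against 19.5 in Cbf1 replicate 2. MET17, the O-acetylhomoserine sulfhydrylase, had folds of 7.71 and 8.3 in Pho4 replicates 1 and 2, against 15.5 in Cbf1 replicate 2.

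HOM6, a homoserine dehydrogenase, had folds of 7.44 and 6.4 in Pho4 replicates 1 and 2, against 18.9 in Cbf1 replicate 2, with summits 5 bp apart on a TCACGTGA site. MET14, the adenylylsulfate kinase, had nearly equal folds, at 7.76 and 7.6 in Pho4 replicates 1 and 2, against 8.32 in Cbf1 replicate 2. MET1, of siroheme synthesis, had folds of 5.09 and 3.74 in Pho4 replicates 1 and 2, against 12.8 in Cbf1 replicate 2. CBF1 itself had folds of 4.28 and 5.35 in Pho4 replicates 1 and 2, against 4.25 in Cbf1 replicate 2. At MET5, for a subunit of sulfite reductase, the Pho4 folds were 8.76 and 9.36, and the overlapping Cbf1 peak, of fold 10.2, had its summit 880 bp away. At YCT1, a cysteine transporter, the Pho4 folds were 5.08 and 5.09, and the Cbf1 peak, of fold 22.1, had its summit 289 bp away. SAM1, an S-adenosylmethionine synthetase, was near the lower limit at 2.44 and 1.92 in Pho4 replicates 1 and 2, with no Cbf1 peak. JLP1, MET3, MHT1, MMP1 and STR2 had no replicated Pho4 summit upstream.

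Glycolytic and hexose genes had many weak peaks. Of 17 listed genes, 10 had a replicated Pho4 summit within 500 bp upstream (58.8%, interval 36.0 to 78.4%), against 20.1% of all genes. A Cbf1 replicate 2 summit lay there at 3 of the 17, against 12.7% of all genes, too few to tell from that share. Their median fold was 3.62 in Pho4 replicate 1 and 3.96 in Pho4 replicate 2, no higher than the 4.11 and 4.19 of all upstream peaks. TDH1, a glyceraldehyde-3-phosphate dehydrogenase, stood out with FBA1, at 13.8 and 13.9 in Pho4 replicates 1 and 2, against 2.85 in Cbf1 replicate 2. Its relative TDH2 had folds of 4.43 and 4.62 in Pho4 replicates 1 and 2, against 18.3 in Cbf1 replicate 2, on the TCACGTGG site shown above. TDH3 had folds of 4.02 and 5.1 with no Cbf1 peak. ENO2, GPM1, HXT1, PDC5, PFK2 and PGM2 had folds between 2.36 and 4.61 in the Pho4 replicates and no Cbf1 peak.

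The distance limit left out a pair of strong peaks. ENO1, an enolase, had an E-box peak 656 bp upstream, of rank 16, with folds of 27.4 and 22.3 in Pho4 replicates 1 and 2. HXT2, a hexose transporter, had one 678 bp upstream, of rank 19, with folds of 23.6 and 23.1. At both genes a Cbf1 replicate 2 summit also lay within 50 bp of the E-box. With a limit of 1000 bp, 16 of the 17 genes had a replicated Pho4 summit, against 29.5% of all genes. Of 50 ribosomal protein genes, 15 had a summit within 500 bp (30.0%, interval 19.1 to 43.8%), against 20.1% of all genes, with median folds of 3.32 and 3.51 in Pho4 replicates 1 and 2. A Cbf1 replicate 2 summit lay within 500 bp upstream of 12 of the 50, against 12.7% of all genes. The Cbf1 fold was 18.1 at RPS21A and 1.7 to 3.95 at the rest, against a median of 2.63 over all Cbf1 replicate 2 peaks of these chromosomes. RPP1, on that list by its name, encodes a ribonuclease P subunit and had no Pho4 summit.

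Repeats and noncoding RNA genes held 50 of the 622 peaks (8.04%). The share of bases at such features was not computed, so the count cannot be read as many or few. The peak of PHO84 is among the 50, over an annotated antisense RNA, and that of MET17, beside a tRNA gene. At YLL067C, in the telomeric region at the left end of chromosome XII, the folds were 38.1 and 43.6 in Pho4 replicates 1 and 2, against 25.4 in Cbf1 replicate 2. At YLL066W-B, further in on the same arm, they were 33.4 and 32.7 in Pho4 replicates 1 and 2, against 25.7 in Cbf1 replicate 2. These windows hold no CACGT and share a run of 29 identical bases. The Pho4 and Cbf1 summits lay 4 bp apart at YLL067C and 34 bp apart at YLL066W-B. In all, 16 peaks overlapped an annotated telomeric region, at 10 of the 11 such regions. None had an E-box, and their median folds were 6.99 and 10.7 in Pho4 replicates 1 and 2. At 12 of the 16 the Cbf1 strain, which carries the same tag, had a peak too, against 311 of all 622 peaks (50%). What the tag and antibody alone give at these telomeric peaks was not tested.

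Other strong peaks had no E-box either. YHR219W, at the right end of chromosome VIII, had folds of 20.9 and 18.9 in Pho4 replicates 1 and 2, against 9.57 in Cbf1 replicate 2. YLR154C-G, in the ribosomal DNA of chromosome XII, had folds of 16.2 and 14.4 in Pho4 replicates 1 and 2, against 17.3 in Cbf1 replicate 2. YJL028W, with the peak inside the gene, had folds of 16.2 and 13.8 in Pho4 replicates 1 and 2, against 3.61 in Cbf1 replicate 2. The highest Cbf1 fold at any replicated Pho4 peak, 30.8, was downstream of RPL43B, a ribosomal protein gene, where Pho4 had only 3.22 and 4.43. Unlike the peaks above, that peak held 1 E-box, at bases 609060 to 609065, with a T flank on both strands. A Cbf1 replicate 2 summit lay near that E-box, and the Pho4 replicate 1 summit was at base 609067. The Pho4 replicate 2 summit, at base 609117, was too far from it for the peak to count as an E-box peak.

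Transfer RNA genes and centromeres carried peaks of both proteins. Of 98 tRNA genes, 28 (28.6%) had a replicated Pho4 peak within 100 bp, against 68 (69.4%) with a Cbf1 replicate 2 peak, and 27 had both. Of all bases, 8.36% lay within 100 bp of a replicated Pho4 peak and 10.3% within 100 bp of a Cbf1 peak. The Pho4 count needs a peak in both libraries, and it depended on the list: Pho4 replicate 1 alone had a peak at 52 of the 98, Pho4 replicate 2 alone at 29, and 10 had one with the upper 50% of each list. The 28 Pho4 peaks there had median folds of 3.99 and 3.75 in Pho4 replicates 1 and 2, and 1 of them had an E-box. Of the 5 centromeres, 2 had a replicated Pho4 peak within 100 bp, against 5 with a Cbf1 peak. On chromosome VIII the folds were 4.16 and 4.4 in Pho4 replicates 1 and 2, against 5.22 in Cbf1 replicate 2. On chromosome XIII they were 4.68 and 4.67 in Pho4 replicates 1 and 2, against 22.5 in Cbf1 replicate 2.

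The start of chromosome XIV, which the Pho4 replicate 1 list covers as far as base 68625, was left out of the next comparison. These chromosomes were set beside others covered by both Pho4 lists, namely chromosome IX, chromosomes I to VI, and VII as far as the boundary. There 798 of 941 Pho4 replicate 2 peaks (84.8%) were replicated. The share with an E-box was 26.0% here and 25.8% there, and the share overlapping a Cbf1 peak 50.0% and 50.6%. The share upstream of a gene was 53.4% here and 50.0% there. E-boxes with no T flank had a replicated Pho4 summit at 67.9% here, interval 60.3 to 74.7%, and at 74.7% there, interval 67.7 to 80.6%. Each pair of intervals overlapped, and no difference was detectable at these numbers.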

How the data were processed

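ChIP-nexus gave 1 peak list for each of 4 libraries. Per the submitters' processing notes, the tools were cutadapt 1.8.1, Bowtie 1.1.2, SAMtools 1.3.1, bedtools and MACS2 2.1.1 and the build was sacCer3; how each was set, and whether a control was used, is not given in the sources used here. For each peak the authors deposited a fold enrichment at the summit, a linear ratio, with −log10 of its p-value and q-value. The deposited score was 10 times the −log10 q-value and was not used further.

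Peaks, summits and E-boxes were matched with Python 3.11.15 and scipy 1.17.1 on the RefSeq R64 genome and annotation, in 1-based positions, and the steps were tested on simulated data. A summit was placed at every gene start within 500 bp downstream of it, otherwise at the gene that held it, otherwise at the nearest gene. Read heights were solved from fold and p-value under a Poisson model. A single Pho4 replicate 2 peak across the boundary on chromosome VII was left out.

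Named peaks were the 12 highest by mean fold percentile, the 6 highest with and without a Cbf1 peak, the 6 highest without an E-box, the 3 of highest Cbf1 fold and every listed gene, of the ribosomal genes only counts. The regions and lists were chosen with earlier results of these data known. Alternatives were stricter lists and overlaps, other windows and promoter lengths, leaving out repeats and leaving out each Pho4 library.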

Additional observations from a re-analysis of the deposited data

Results flagged for a closer look

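The effect of the flanking base ran in opposite directions for the proteins. The log2 odds ratio of a summit at E-boxes with a T flank over E-boxes with none was below 0 in both Pho4 libraries (-1.88 and -1.87) and above 0 in Cbf1 replicate 2 (1.94). Pho4 minus Cbf1 was -3.82. Every Pho4 library thus moved one way and the Cbf1 library the other, and with 1 Cbf1 library on these chromosomes an exact permutation test cannot go below p = 0.33, so the difference is not tested beyond that.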

How the results depend on the processing

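No paired analysis was possible because Cbf1 replicate 1 does not reach these chromosomes, so Pho4 and Cbf1 share fewer than 2 replicate numbers, and the counts come from no test across libraries. Of 108 alternative values for 13 results, 77 stayed within their limits, 31 moved and 0 reversed; the causes were not tested beyond what each setting removes. Dropping the peaks of low −log10 q, so that 50% of each list stayed, left 346 peaks, with 38.2% at an E-box, 44.2% overlapping Cbf1, Pho4 summits at 26.3% of E-boxes with and 59.1% without a T flank, 6 glycolytic genes, 10 tRNA genes and an E-box fold ratio of 1.61. Asking for Pho4 summits at most 50 bp apart gave 32.4% at an E-box, 6 glycolytic genes, 1 centromere and a ratio of 1.77. A window of 25 bp gave 19.6% at an E-box, Pho4 summits at 23.1% of E-boxes with and 52.8% without a T flank, and a ratio of 1.9. Taking only E-boxes with a T on both strands gave 25.5%. Cbf1 overlap fell to 26.2% when 50% of both peaks had to overlap, to 21.7% when the summits had to lie within 50 bp, and to 45.6% without repeats and noncoding RNA genes. That last setting also left 2 tRNA genes and a ratio of 1.76, and it removed PHO84, whose peak overlaps an annotated antisense RNA, and MET17, whose peak overlaps a tRNA gene, so 6 phosphate genes had a summit. A promoter of 1000 bp gave 74.4% of peaks upstream and 16 glycolytic genes. The ratio was 1.65 with an overlap of 50% of both Pho4 peaks, 1.7 by the summits of Pho4 replicate 1 and 1.7 in a window of 100 bp. With either Pho4 library alone, the E-box share was 19.2 to 23.3%, the ratio 1.83 to 2.06 and the tRNA genes 29 to 52. Of 27 listed genes with a Pho4 summit, 15 kept it under every alternative. The difference between Pho4 and Cbf1 in the flank effect ranged from -5.37 to -3.01.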

Other observations

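The 20 replicated Pho4 peaks of highest Cbf1 fold, 20.6 to 30.8, had Pho4 ranks from 2 to 559 with a median of 151. Of these 20, 12 had an E-box and 9 had a T flank at the E-box nearest the Pho4 summit. RRN5, a subunit of the upstream activating factor of RNA polymerase I, was among them, with folds of 13.1 and 12.7 in Pho4 replicates 1 and 2, against 25.3 in Cbf1 replicate 2. Its window held TCACGTGA and ACACGTGC, and the summits of the proteins lay 32 bp apart. RRN5 was picked after its values were seen.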
